A study of Mus musculus with 12 samples.

Results

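The genes of the mitochondrial genome are the 37 genes of the count table whose symbol starts with mt-, out of 54532 genes in all. They were chosen by symbol alone, and they comprise 13 genes for proteins, 2 for ribosomal RNA (rRNA) and 22 for transfer RNA (tRNA). All 37 lie on the mitochondrial chromosome at their positions in the mouse build GRCm38. RNA of liver and of subcutaneous fat was sequenced from male mice that received, at 10 weeks of age, a single tail vein injection of adeno-associated virus 8 and were then kept on a low-fat diet until 16 weeks after injection. The vector held the promoter of thyroxine-binding globulin, which is active in hepatocytes, and either full-length human HKDC1 (hHKDC1 OE) or no gene behind it (null). Each tissue had 3 null and 3 hHKDC1 OE libraries, so all 12 libraries came from mice that carried the virus. The question for these genes was whether the RNA made in mitochondria differed with the vector in each tissue, and between the tissues, because HKDC1 is a hexokinase that can sit on the outer mitochondrial membrane.

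The libraries held 15496019 to 19954971 counts on genes. The title and characteristics of hHKDC1 OE replicates 2 and 3 of each tissue call them overexpression, whereas their description calls them knockout, and they are used here by title. Mouse Hkdc1 had 0 to 8 counts per library, and human HKDC1 was not analysed here, so neither checks the vector labels. Summed hepatocyte markers were 121829 to 124163 counts-per-million units (CPM) in null liver, 80435 to 103429 in hHKDC1 OE liver, 3614, 3758 and 10063 in fat of the null group and 3185, 1964 and 2751 in fat with hHKDC1 OE, so that they were lower with hHKDC1 OE in every library of both tissues. Summed adipocyte markers were 22863 to 33082 CPM in fat and 119 to 184 in liver. In fat, 12 skeletal muscle markers summed to 23325, 27657 and 696 CPM in null replicates 1 to 3 and to 20747, 1386 and 3528 CPM in hHKDC1 OE replicates 1 to 3, against 22.9 to 45.5 CPM in liver. Summed B cell markers were 2.26 to 4.35 CPM in null fat and 1010, 57.9 and 747 CPM in hHKDC1 OE fat. T cell markers (7.17 to 19.5 CPM in null, 54.2 to 776 with hHKDC1 OE) and macrophage markers (331 to 794 and 1122 to 1574) were likewise higher in each hHKDC1 OE fat library, and erythroid markers lower (529 to 799 and 253 to 467). Ucp1, which uncouples respiration in thermogenic adipocytes, had 0.0537 to 1.13 CPM in null and 4.73 to 76.6 in hHKDC1 OE fat. The 8 brown adipocyte markers that include Ucp1 summed to 103, 176 and 65.9 CPM in null fat. They summed to 401, 107 and 240 CPM with hHKDC1 OE, so these sums overlapped. The part of these cells in the fat values was not tested. The main values in fat are also given without null replicates 1 and 2 and hHKDC1 OE replicate 1, a choice made after seeing the data, which leaves 1 null and 2 hHKDC1 OE libraries, with the lone library, which is the fat library highest in hepatocyte markers, taken to vary like the others. In bulk tissue, fewer cells of a type and less RNA per cell cannot be told apart.

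Mitochondria keep a small circular genome that is copied many times in each cell. The mitochondrial RNA polymerase transcribes each strand as a long precursor, which is cut at the tRNAs that lie between the other genes, and the messenger RNAs then code for core subunits of respiratory complexes I, III, IV and V. The remaining subunits and all factors that copy, transcribe and process this genome are encoded in the nucleus. Hepatocytes are rich in mitochondria, whereas white adipocytes hold fewer around their lipid droplet.

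A part of this genome has a near-identical nuclear copy, and the sequences show how little separates that part from its copy. The copy lies on the minus strand of chr1:24611535-24616197 and holds 7 annotated pseudogenes, each of which matches a part of the stretch of 4662 bases from base 6381 to base 11042 of the mitochondrial chromosome. The first letters of 3 copies and the mitochondrial bases they match, from the transcripts of GENCODE release M21 (GRCm38), are shown because they decide whether a read can be placed. Capitals mark the bases that differ. Gm29216 starts inside mt-Co1, the catalytic subunit of complex IV, and the differences there, counted from the first base of mt-Co1 with the mitochondrial base first, were T1056A, C1057T, A1059G, A1060G, C1062A and A1066T. The copy of mt-Nd3, a complex I subunit, differed by T3C alone, and the copy of mt-Co3, a complex IV subunit, by no base.
mt-Co1, chrM:6381-6420, plus strand: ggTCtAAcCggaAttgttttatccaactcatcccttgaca
Gm29216, chr1:24616158-24616197, minus strand: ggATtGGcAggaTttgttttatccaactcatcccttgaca
mt-Nd3, chrM:9459-9498, plus strand: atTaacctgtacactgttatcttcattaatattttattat
Gm28438, chr1:24613080-24613119, minus strand: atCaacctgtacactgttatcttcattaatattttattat
mt-Co3, chrM:8607-8646, plus strand: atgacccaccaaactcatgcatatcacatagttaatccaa
Gm28437, chr1:24613932-24613971, minus strand: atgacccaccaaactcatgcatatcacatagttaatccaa

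Levels per length split the protein genes by this stretch. The 6 protein genes wholly inside it (mt-Co2, mt-Atp8, mt-Atp6, mt-Co3, mt-Nd3 and mt-Nd4l) make up 26.3% of the length of the 13 protein genes but took 51728 of 11598553 protein-gene counts, or 0.446%. mt-Atp8 lies within it but has no annotated copy of its own. The copies took 70619 counts. The ratio of counts on the copy to counts on the mitochondrial gene had a median over libraries of 0.626 for mt-Co2, 0.922 for mt-Atp6, 1.07 for mt-Co3, 1.45 for mt-Nd4l and 8.30 for mt-Nd3. It was 0.00181 for mt-Co1 and 0.00463 for mt-Nd4, which lie only partly inside the stretch. Counts on these 6 genes and on their copies are therefore uncertain, since a read that fits both places cannot be assigned, and how such reads were handled is not given in the sources used here.

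In CPM per kilobase of the whole gene, the genes not wholly inside the stretch had a like order in the tissues. The copies match 63.6% of the length of mt-Nd4 and 31.8% of that of mt-Co1, so their levels per length, and their places in the order, are uncertain. In fat, mt-Co1 was highest with a mean of 14244 over 6 libraries, and mt-Cytb, the complex III subunit cytochrome b, followed with 9116. The complex I genes had means of 6675 for mt-Nd1, 5309 for mt-Nd2, 4740 for mt-Nd6, 4398 for mt-Nd4 and 3115 for mt-Nd5. The ranges over fat libraries of neighbours in this order overlapped. In liver, mt-Co1 had a mean of 12146 and mt-Cytb of 8589, and the complex I genes had 6274 for mt-Nd2, 6113 for mt-Nd1, 3769 for mt-Nd6, 3653 for mt-Nd4 and 2157 for mt-Nd5. The lowest liver library of mt-Co1 (10741) lay above the highest of mt-Cytb (10446), whereas mt-Nd2 and mt-Nd1, and mt-Nd6 and mt-Nd4, overlapped. The rRNA genes were lower than all of these, with 545 in fat and 1031 in liver for mt-Rnr1 (12S) and 435 and 852 for mt-Rnr2 (16S). The method by which the libraries selected RNA is not given in the sources used here. The genes inside the copied stretch were lower again, from 141 and 130 for mt-Co2 to 1.92 and 1.67 for mt-Atp8, which had 77 counts in the 12 libraries together and was not tested.

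**Figure D1:**
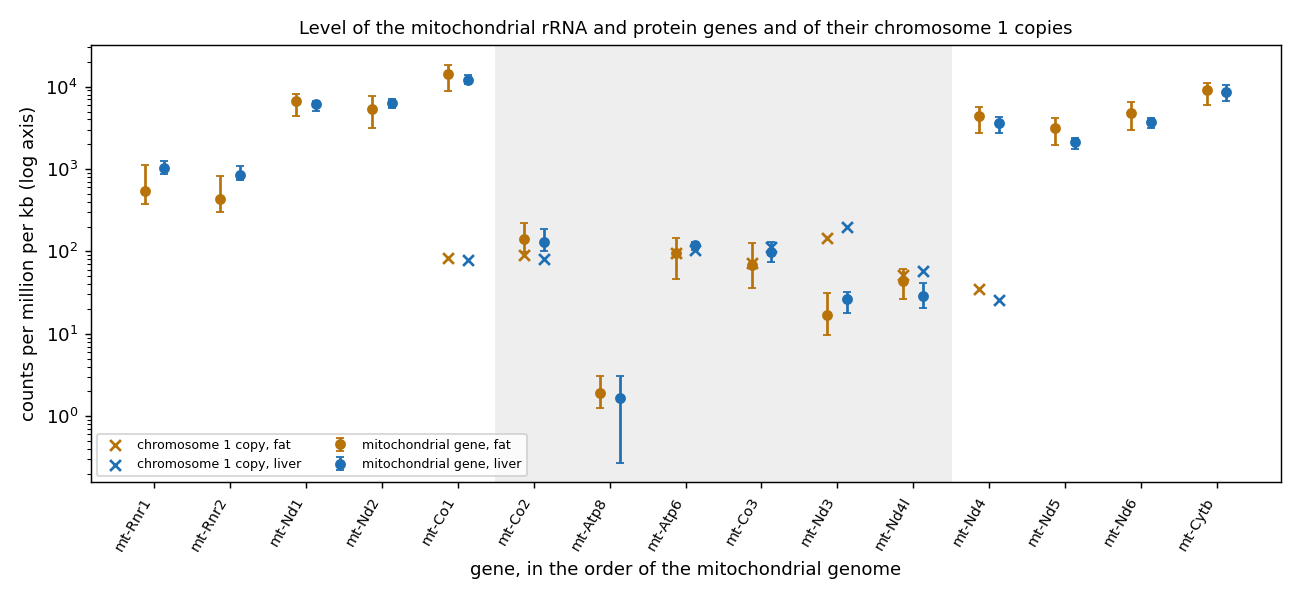
Level of the 15 protein and rRNA genes in CPM per kilobase (log axis), in the order of the mitochondrial genome, as the mean of the 6 fat and the 6 liver libraries, with bars from the lowest to the highest library and crosses for the mean of the chromosome 1 copies. The 6 protein genes inside the copied stretch are shaded, and their means lie below those of every other mitochondrial gene shown, from 141 down to 1.92 in fat.

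The 37 genes took a like share of all counts in every group. In null fat the share was 7.22%, 7.02% and 4.69% (6.31% ± 1.41, SD, n = 3), and in hHKDC1 OE fat it was 5.75%, 3.79% and 7.64% (5.72% ± 1.93). In liver it was 5.34%, 5.69% and 5.83% with the null vector (5.62% ± 0.252) and 5.33%, 6.06% and 4.59% with hHKDC1 OE (5.33% ± 0.736). The fat libraries spread more widely than the liver libraries, and the ranges of all 4 groups overlapped. The 95% Wilson interval of a library's share was at most 0.0263 percentage points wide, which covers counting error only.

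The differences in this share were smaller than the spread between libraries. hHKDC1 OE minus null was -0.587 percentage points in fat (two-sided exact permutation test, p = 0.7) and -0.292 in liver (p = 0.6, exact permutation), where 3 against 3 libraries cannot give a p below 0.1. Fat minus liver was 0.545 (exact permutation within vector, p = 0.435), and the vector effects of the tissues differed by -0.295 (p = 0.845, exact permutation); here the smallest p possible was 0.005. After Benjamini-Hochberg adjustment over the 16 share and ratio tests, each of these 4 exact permutation tests had p = 0.96. In fat, the sign rested on single libraries: without hHKDC1 OE replicate 2 the difference was 0.381, and without the 3 libraries high in muscle markers it was 1.02. In liver it was 0.0752 without hHKDC1 OE replicate 3. Fat minus liver was 0.0655 to 1.03 with 1 library left out in turn, and -0.270 without the 3 libraries high in muscle markers. Without those 3, the difference of the vector effects was 1.31. The part of muscle in the fat values was not tested.

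**Figure D2:**
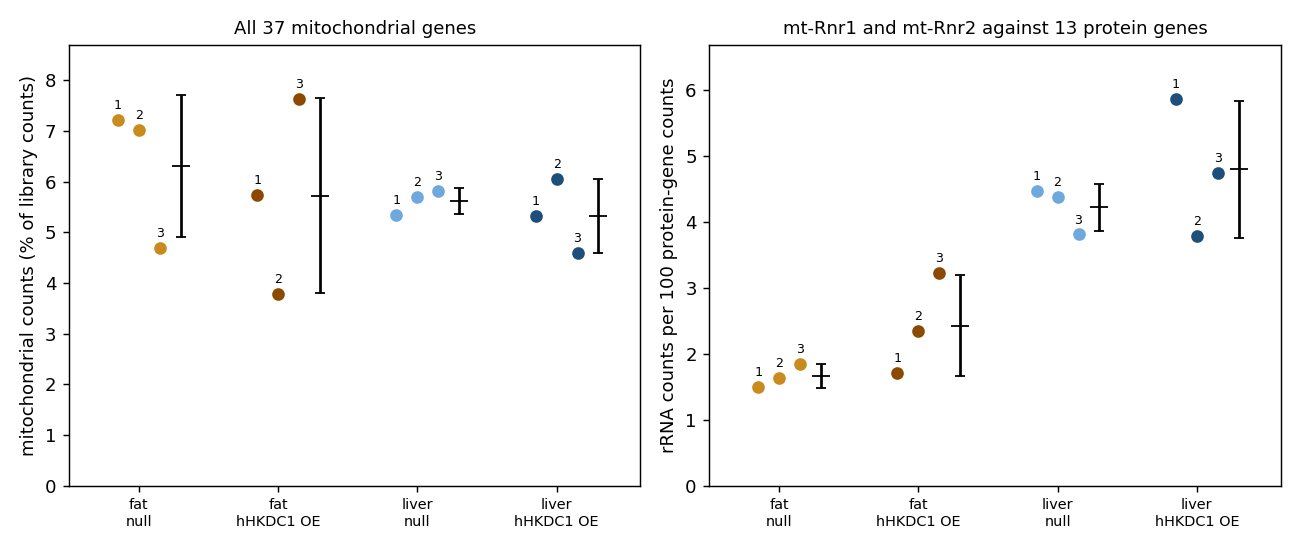
Share of each library's counts on the 37 mitochondrial genes (left, percent) and rRNA counts per 100 protein-gene counts (right), by tissue and vector, with each library as a point and the mean and SD of 3 libraries as a bar. The share overlaps in all groups, whereas every fat library lies below every liver library in the rRNA ratio (3.23 at most in fat and 3.79 at least in liver).

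The ratio of rRNA counts to protein-gene counts separated the tissues. The method of RNA selection is not given in the sources used here, and its part in this ratio was not tested. Null fat had 1.5, 1.63 and 1.85 rRNA counts per 100 counts on protein genes (1.66 ± 0.180, SD, n = 3), and hHKDC1 OE fat had 1.71, 2.35 and 3.23 (2.43 ± 0.762). Null liver had 4.48, 4.38 and 3.81 (4.22 ± 0.360), and hHKDC1 OE liver had 5.86, 3.79 and 4.75 (4.80 ± 1.04). All 6 fat libraries lay below all 6 liver libraries. Fat minus liver was -2.47 (exact permutation within vector, p = 0.005, the smallest this design can give, 0.08 after adjustment over the 16 tests). hHKDC1 OE minus null was 0.771 in fat (p = 0.2, exact permutation) and 0.576 in liver (p = 0.5, exact permutation). Without hHKDC1 OE replicate 3 the fat value was 0.371, and without the 3 libraries high in muscle markers it was 0.937. The liver value was 0.0432 without hHKDC1 OE replicate 1 and 1.08 without hHKDC1 OE replicate 2. With only the 5 protein genes that the nuclear copy does not touch as divisor, the means were 3.18 ± 0.382 and 4.73 ± 1.63 in null and hHKDC1 OE fat and 7.71 ± 0.563 and 9.05 ± 1.89 in the liver groups.

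As a share of all counts, the rRNA genes took 0.106%, 0.112% and 0.0850% in fat with the null vector and 0.0964%, 0.0866% and 0.238% with hHKDC1 OE. They took 0.228%, 0.238% and 0.213% in liver with the null vector and 0.293%, 0.221% and 0.207% with hHKDC1 OE. hHKDC1 OE fat replicate 3 thus stood at the level of liver, and the other 5 fat libraries stood below every liver library. Fat minus liver was -0.112 percentage points (exact permutation, p = 0.015, 0.12 after adjustment). hHKDC1 OE minus null was 0.0393 in fat and 0.0140 in liver (exact permutation, p = 0.8 and p = 0.9), and 0.0774 in fat without the 3 libraries high in muscle markers. The tRNA genes took 0.0136% to 0.0236% in fat and 0.0209% to 0.0340% in liver, a difference of -0.00601 percentage points (exact permutation, p = 0.045, 0.24 after adjustment).

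In subcutaneous fat, none of the 24 mitochondrial genes that passed the filter on low counts differed between hHKDC1 OE and null by edgeR's quasi-likelihood test (Benjamini-Hochberg adjusted p under 0.05), where 0% of all genes tested were called. None had an unadjusted p under 0.05, against 17.7% of all genes tested, none had groups that did not overlap, against 22.7%, and DESeq2 called 0 of the 24, against 7.95% of all genes tested. The study describes the fat groups as separate mice. For the liver libraries the labels do not say so, and p-values there measure only the spread between the libraries, which may be technical. The 12 protein genes tested had log2 differences of -0.51 to 0.68 with standard errors (SE) of 0.32 to 0.46, of which 3 were positive and 9 negative, and their median was -0.26 beside -0.05 over all genes tested. Over all 24 mitochondrial genes tested, rRNA and tRNA genes included, the median was -0.21 with 11 positive. Without the 3 libraries high in muscle markers it was 0.26 with 19 of 24 positive, so the sign over all 24 rested on the libraries. A median of the protein genes alone is not given for that fit.

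mt-Co1 had 27833, 28649 and 17157 CPM, scaled by the trimmed mean of M values (TMM), in the null fat libraries. The hHKDC1 OE libraries had 19399, 12703 and 27605. The groups overlapped, with hHKDC1 OE replicate 2 below every null library, and the log2 difference was -0.30 (SE 0.46, edgeR adjusted p = 0.743). The value without the 3 libraries high in muscle markers was 0.19. mt-Nd5, a proton-pumping subunit of complex I, had 8146, 7772 and 4413 scaled CPM in null and 5175, 3349 and 5720 in hHKDC1 OE fat. Its 2 highest libraries were both null and carried the most muscle markers, and its log2 difference was -0.51 (SE 0.37, edgeR adjusted p = 0.485), beside -0.0029 without the 3 libraries high in muscle markers. mt-Nd3 went the other way, with 4.55, 5.32 and 3.36 scaled CPM in null and 7.23, 3.66 and 10.4 in hHKDC1 OE fat. Its log2 difference was 0.68 (SE 0.43, edgeR adjusted p = 0.427), or 1.01 without the 3 libraries high in muscle markers. With 1 library left out in turn it ranged from 0.31 to 0.98, and the gene lies inside the copied stretch.

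The other abundant protein genes varied between fat libraries much as mt-Co1 did. mt-Cytb had 12177, 12660 and 8623 CPM in null fat, 10503, 6790 and 11817 with hHKDC1 OE, 9300, 10364 and 11624 in null liver, and 8123, 11950 and 7597 with hHKDC1 OE. mt-Nd1 had, in the same order, 7848, 7422 and 4775, then 6411, 4228 and 7644, then 5423, 6432 and 6235, and last 5989, 6164 and 4858 CPM. mt-Nd4 had 7179, 6869 and 4734, then 5898, 3782 and 7902, then 4870, 5511 and 5908, and last 4203, 5890 and 3825 CPM. In fat, null replicate 3 and hHKDC1 OE replicate 2 were the lowest libraries for all 3 genes, and they were also the lowest in muscle markers. hHKDC1 OE replicate 3, with muscle markers at 3528 CPM, had the highest mt-Nd4 of the fat libraries. The part of muscle in these values was not tested. Inside the copied stretch, mt-Co2, which receives electrons from cytochrome c, had 89.5, 103 and 71.1, then 98.7, 67.2 and 151, then 72.8, 89.2 and 101, and last 73.7, 129 and 68.5 CPM. mt-Atp6 had 90.0, 67.2 and 44.1, then 56.0, 31.8 and 99.1, then 89.6, 88.3 and 73.8, and last 72.7, 89.1 and 70.0 CPM. Null replicate 3 and hHKDC1 OE replicate 2 were again the lowest fat libraries for both genes. mt-Atp8, whose reading frame overlaps that of mt-Atp6 by 43 bases, had less than 1 CPM in every library.

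The rRNA genes were highest in 1 fat library. mt-Rnr2 had 693, 692 and 480 scaled CPM in null and 535, 473 and 1250 in hHKDC1 OE fat, and mt-Rnr1 had 449, 542 and 366 in null and 375, 341 and 1041 in hHKDC1 OE fat. hHKDC1 OE replicate 3 lay above all other fat libraries for both genes, and the other hHKDC1 OE libraries lay within or just below the null range. The log2 differences were 0.28 for mt-Rnr2 (SE 0.40, edgeR adjusted p = 0.731) and 0.37 for mt-Rnr1 (SE 0.45, edgeR adjusted p = 0.672). Without replicate 3 of hHKDC1 OE they were -0.30 and -0.34, and without the 3 libraries high in muscle markers 0.80 and 0.86. In this library, muscle markers summed to 3528 CPM, B cell markers to 747 CPM and T cell markers to 776 CPM, the last being the highest of the fat libraries, and their part in its values was not tested.

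In liver, where the vector acts, none of the 28 mitochondrial genes tested passed the same test, and again 0% of all genes were called. At an unadjusted p under 0.05 there were 7 of 28, against 6.94% of all genes tested, and 5 of 28 had groups that did not overlap, against 12.5%. DESeq2 called 0 of the 28, against 0.674% of all genes tested. The 12 protein genes tested all had negative log2 differences, from -0.65 to -0.03 with a median of -0.21, beside a median of 0.01 over all genes tested. They are cut from shared precursors and were read in the same libraries, so they are not 12 independent measurements. Summed hepatocyte markers were also lower in every hHKDC1 OE liver library, at 96624, 103429 and 80435 CPM against 121829, 122731 and 124163 CPM with the null vector, and their part in these values was not tested.

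mt-Co3 had 91.5, 102 and 74.0 TMM-scaled CPM with the null vector in liver and 68.2, 68.5 and 55.9 with hHKDC1 OE. All 3 hHKDC1 OE libraries lay below all 3 null libraries, and the log2 difference was -0.48 (SE 0.16, edgeR adjusted p = 0.606). mt-Nd4l, a small membrane subunit of complex I, had 10.5, 8.26 and 12.4 scaled CPM in null and 6.57, 7.06 and 6.18 in hHKDC1 OE liver, again without overlap (-0.65, SE 0.21, edgeR adjusted p = 0.585). Both genes lie inside the copied stretch, and neither passed the adjusted threshold. The 2 further protein genes with groups apart lie outside it and are far more abundant. mt-Nd5 had 4649, 4140 and 4020 scaled CPM in null and 3761, 4003 and 3061 in hHKDC1 OE liver (-0.24, edgeR adjusted p = 0.854). mt-Nd6, the only protein gene of the minus strand, had 2296, 2010 and 2106 in null and 1856, 1917 and 1568 in hHKDC1 OE liver (-0.26, edgeR adjusted p = 0.824). For these, the gap between the groups was narrow beside the spread within them.

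The liver rRNA genes had log2 differences of 0.03 for mt-Rnr1 and 0.05 for mt-Rnr2, so that the median of the protein genes and the rRNA genes had opposite signs. Neither passed the test. The 3 hHKDC1 OE libraries of mt-Rnr2 had 1741, 1182 and 1249 CPM and the null libraries 1390, 1325 and 1198 CPM, with replicate 1 of hHKDC1 OE highest.

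Of the 7 liver genes with an unadjusted p under 0.05, 5 were tRNA genes. The sequences of the 6 tRNA genes with the most counts are given, 4 of those 5 among them, with the anticodon in capitals. They are from GENCODE M21 (GRCm38), and mt-Th, mt-Ts2 and mt-Tl2 stand next to each other between mt-Nd4 and mt-Nd5.
mt-Tp (proline), chrM:15356-15422, minus strand: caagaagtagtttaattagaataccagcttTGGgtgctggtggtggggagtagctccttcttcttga
mt-Tc (cysteine), chrM:5192-5257, minus strand: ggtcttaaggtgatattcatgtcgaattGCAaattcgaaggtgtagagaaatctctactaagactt
mt-Te (glutamate), chrM:14071-14139, minus strand: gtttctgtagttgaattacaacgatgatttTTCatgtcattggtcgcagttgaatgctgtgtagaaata
mt-Th (histidine), chrM:11546-11612, plus strand: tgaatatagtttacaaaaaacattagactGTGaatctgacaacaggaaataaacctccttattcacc
mt-Ts2 (serine), chrM:11613-11671, plus strand: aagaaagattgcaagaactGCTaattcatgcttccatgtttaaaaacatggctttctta
mt-Tl2 (leucine), chrM:11671-11741, plus strand: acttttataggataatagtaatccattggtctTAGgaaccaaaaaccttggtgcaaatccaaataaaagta

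The 3 neighbouring tRNA genes had lower values with hHKDC1 OE in liver, and none passed the adjusted threshold. mt-Tl2 had 23.3, 22.1 and 11.8 TMM-scaled CPM in null and 12.3, 8.76 and 9.27 in hHKDC1 OE liver (-0.92, SE 0.27, edgeR adjusted p = 0.520). mt-Ts2 had 34.8, 16.5 and 9.91 in null and 11.7, 8.60 and 10.4 in hHKDC1 OE liver (-1.0, SE 0.39, edgeR adjusted p = 0.646), and without null replicate 1 its log2 difference was -0.37. In both, null replicate 3 lay among the hHKDC1 OE libraries. mt-Th had 15.5, 16.7 and 12.6 in null and 7.74, 12.4 and 10.7 in hHKDC1 OE liver, with no overlap (-0.53, edgeR adjusted p = 0.652).

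mt-Tc went the other way in liver, with 29.3, 22.4 and 24.2 TMM-scaled CPM in null and 69.1, 28 and 36.1 in hHKDC1 OE libraries. The log2 difference was 0.81 (SE 0.30, edgeR adjusted p = 0.621), and hHKDC1 OE replicate 1 was far above the rest, without which it was 0.34. mt-Tn, the asparagine tRNA gene, named after its values were seen, was the fifth of these tRNA genes and was also higher on average, with 5.37, 4.62 and 5.94 scaled CPM in null and 9.82, 8.71 and 5.80 in hHKDC1 OE liver, which overlapped. With no filter on low counts, edgeR called mt-Tc (0.82, adjusted p = 0.00151), mt-Ts2 (-0.99, adjusted p = 0.000494) and mt-Tl2 (-0.91, adjusted p = 0.00284), so that their calls depended on that filter, where 1.32% of all genes were called. mt-Tv, the valine tRNA gene, was too low for the filter and is named because its values stood out: it had 4, 3 and 5 counts in null liver and 0 in each hHKDC1 OE liver library, and in fat 0 in each null library and 7, 0 and 4 with hHKDC1 OE. A count of 0 allows up to 3 counts in a library, or 0.150 to 0.194 CPM here, so that these values lie near the limit of what the libraries could show.

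**Figure D3:**
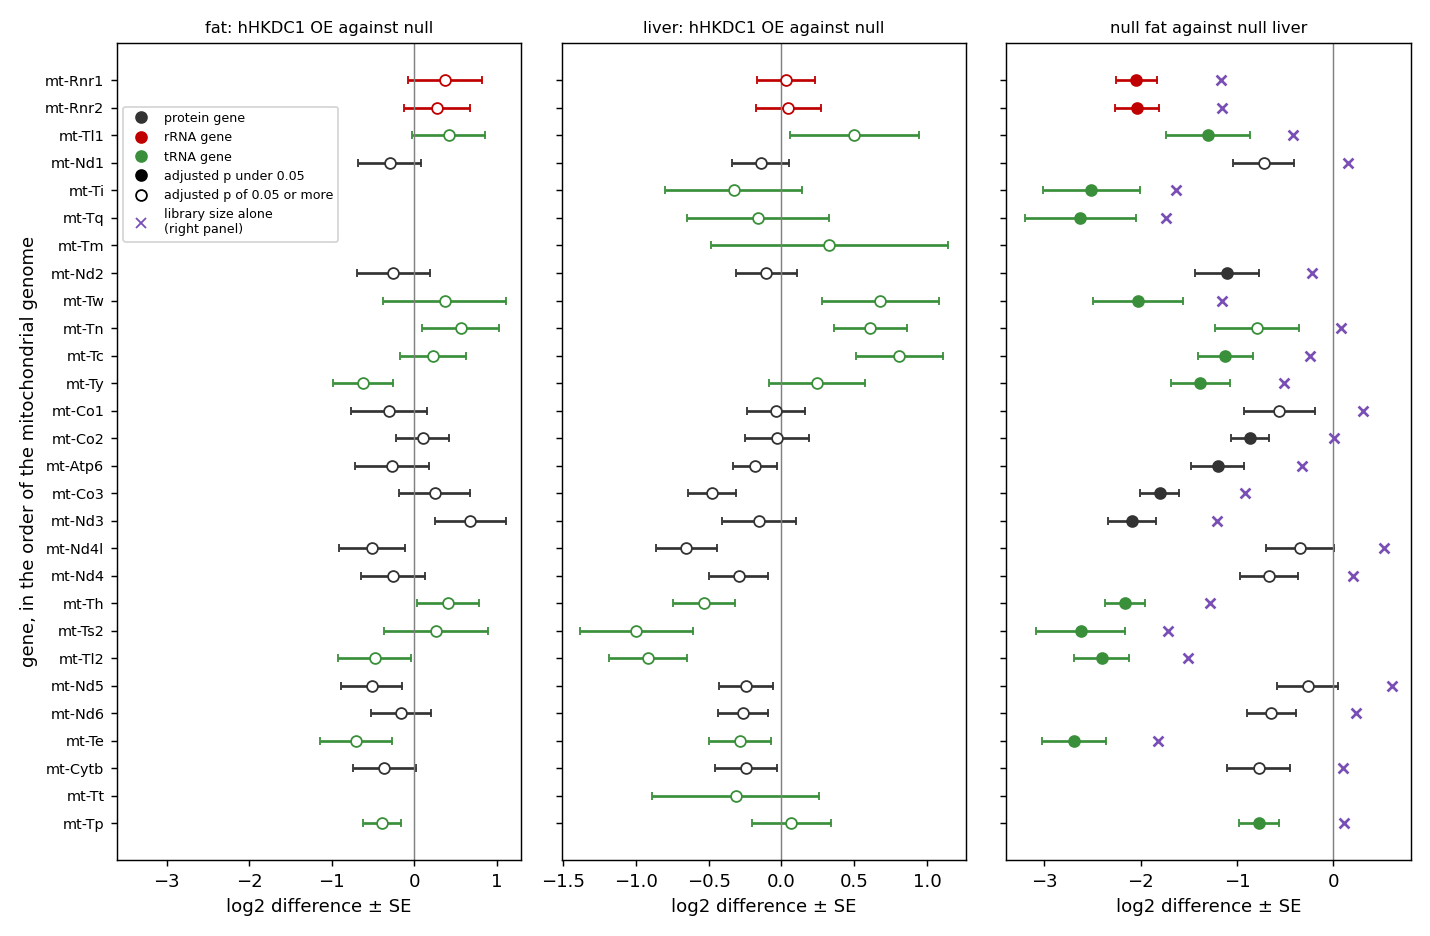
Log2 difference ± SE from edgeR for each mitochondrial gene tested, in genome order: hHKDC1 OE against null in fat (left) and in liver (middle), and null fat against null liver (right), where crosses give the same value scaled by library size alone. No symbol is filled in the left and middle panels (adjusted p of 0.05 or more), and 18 of 26 are filled in the right panel, all below 0.

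Across all 22 tRNA genes, 2625 to 5902 counts per library were found, and the counts were very uneven. mt-Tp had 27617 counts in the 12 libraries, mt-Tc 6122, mt-Te 2559, mt-Ts2 2263, mt-Tl2 2086 and mt-Th 2080, and mt-Tf (phenylalanine) had 0. mt-Tp alone took 58.5% to 72.3% of tRNA counts in fat and 49.6% to 56.3% in liver. The 8 tRNA genes of the minus strand took 82.3% to 90.7% in fat and 72.2% to 87.1% in liver. The libraries kept no strand information, so reads of these genes, and of mt-Nd6, cannot be told from antisense RNA of the opposite strand. Whether these fragments come from mature tRNA or from longer precursors was not tested.

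Between the tissues, with null libraries only, 18 of the 26 mitochondrial genes tested differed by edgeR, all of them lower in fat, while 64.3% of all genes tested were called and 30.5% were called lower in fat. At an unadjusted p under 0.05 there were 20 of 26, against 67.8% of all genes tested. The groups did not overlap for 23 of 26, against 71.6% of all genes tested. Both rRNA genes, 5 of 12 protein genes and 11 of 12 tRNA genes passed. DESeq2 called 23 of the 26, all lower in fat, while it called 65.5% of all genes tested and 30.2% lower. The median log2 difference was -2.04 for the rRNA genes, -2.10 for the tRNA genes and -0.75 for the protein genes, beside 0.09 over all genes tested.

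Both rRNA genes were lower in fat. mt-Rnr2 had 480, 483 and 336 TMM-scaled CPM in null fat and 1977, 1769 and 1586 in null liver (-2.04, SE 0.23, edgeR adjusted p = 0.000142). mt-Rnr1 had 311, 378 and 256 in fat and 1260, 1405 and 1237 in liver (-2.04, SE 0.22, edgeR adjusted p = 9.19e-05). Every liver library was over every fat library by a gap far wider than the spread in either tissue. The 5 protein genes that fell were mt-Nd2, mt-Co2, mt-Atp6, mt-Co3 and mt-Nd3, of which only mt-Nd2 lies outside the copied stretch. mt-Co3 had 34.1, 41.3 and 26.8 scaled CPM in fat and 123, 135 and 97.8 in liver (-1.80, SE 0.20, edgeR adjusted p = 0.000129). mt-Nd3 had 3.16, 3.72 and 2.35 in fat and 13.5, 11.7 and 14.1 in liver (-2.09, SE 0.25, edgeR adjusted p = 0.000174). mt-Nd2 had 5349, 4538 and 2752 in fat and 10021, 8882 and 8215 in liver (-1.10, SE 0.33, edgeR adjusted p = 0.0194). All 3 were lower in each fat library than in each liver library, and mt-Atp6, the proton channel subunit of complex V, at -1.20, and mt-Co2 at -0.87, both with an edgeR adjusted p of 0.0053, were also lower in each.

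Of the 7 protein genes not wholly inside the copied stretch, the 6 apart from mt-Nd2 did not pass by edgeR, whereas DESeq2 called 5 of these 6, all but mt-Nd5. Without null fat replicate 3, edgeR also called mt-Cytb (-0.57), mt-Nd1 (-0.48), mt-Nd4 (-0.45) and mt-Nd6 (-0.45). mt-Co1 had 19300, 20002 and 12009 TMM-scaled CPM in null fat and 24667, 25261 and 25902 in null liver, apart but with a wide spread in fat (-0.56, SE 0.37, edgeR adjusted p = 0.212). mt-Cytb had a log2 difference of -0.78 (edgeR adjusted p = 0.0676), mt-Nd1 of -0.72 (0.0756), mt-Nd4 of -0.67 (0.0814) and mt-Nd6 of -0.65 (0.0534). mt-Nd5 and mt-Nd4l overlapped between the tissues, at -0.27 and -0.35 (edgeR adjusted p = 0.478 and 0.415). With 1 library left out in turn, they ranged from -0.389 to -0.0168 and from -0.518 to -0.00763.

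Among the tRNA genes, mt-Te had 6.73, 3.37 and 3.33 TMM-scaled CPM in null fat and 21.4, 31.7 and 33.8 in null liver (-2.69, edgeR adjusted p = 0.000216). mt-Tl2 had 5.43, 4.54 and 4.45 in fat and 31.4, 29.2 and 15.6 in liver (-2.40, edgeR adjusted p = 0.000175), and mt-Th had 4.12, 5.10 and 4.07 in fat and 20.9, 22 and 16.6 in liver (-2.16, edgeR adjusted p = 5.16e-05). Fat was far below liver in each. mt-Ts2 fell by 2.62, mt-Tc by 1.12 and mt-Tp by 0.77 on the log2 scale (edgeR adjusted p = 0.00141, 0.00903 and 0.0113).

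These tissue values depend on the scaling. When the counts were scaled by library size and not by TMM, the median of all genes tested moved from 0.09 to 0.97, 59% of genes were called higher in fat and 15% lower, and 10 of the 26 mitochondrial genes were still called lower in fat. These 10 were among the 18, and comprised both rRNA genes, mt-Co3, mt-Nd3 and 6 tRNA genes. mt-Rnr1 was then at -1.17, mt-Rnr2 at -1.16, mt-Co3 at -0.92 and mt-Nd3 at -1.21, and 8 of 12 protein genes had a positive value, mt-Co1 of 0.31 among them. Each of the 26 lay below the median of all genes tested under both scalings. Without null fat replicates 1 and 2, a single null fat library is left, taken to vary like the liver libraries. That fit called 24 of 30 genes tested lower in fat under TMM, where 42.6% of all genes were called and 20.5% were called lower.

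The test of whether the vector effect differed between fat and liver called none of 29 genes tested, where 0% of all genes were called, and DESeq2 called 0 of them, against 2.9% of all genes tested. At an unadjusted p under 0.05 there were 2 of 29, against 12.7% of all genes tested. They were mt-Th, with a fat minus liver difference of log2 effects of 1.03 (edgeR adjusted p = 0.365), and mt-Tt, the threonine tRNA gene, with 2.83 (edgeR adjusted p = 0.296). mt-Tt had 102 counts in all 12 libraries.

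Taking each protein gene as a percent of the 13 removes the scaling of the library, and these values are described without a test. Between hHKDC1 OE and null, the groups were apart for 2 of 13 genes in fat (mt-Co2 and mt-Nd3, both higher with hHKDC1 OE) and for 3 of 13 in liver (mt-Co1 higher, mt-Atp8 and mt-Nd4l lower). All of these but mt-Co1 lie wholly inside the copied stretch, so their counts are uncertain. mt-Atp8 had only 7, 6 and 10 counts in null and 6, 4 and 1 in hHKDC1 OE liver. Between fat and liver the groups were apart for 6 of 13 with the null vector and 4 of 13 with hHKDC1 OE, of which mt-Nd5 and mt-Atp6 were apart with both. mt-Atp6 also lies inside the copied stretch. No share over all genes exists for this measure. mt-Co1 was 34.1% to 38.9% in all libraries, with 34.7% ± 0.465 in liver with the null vector and 37.5% ± 0.737 with hHKDC1 OE (SD, n = 3), which did not overlap, and it was 37.3% ± 0.762 and 37.4% ± 1.35 in null and hHKDC1 OE fat. mt-Nd5 held a larger part in fat: it was 10.7%, 10.3% and 9.67% in null fat and 8.66%, 7.57% and 7.18% in null liver. With hHKDC1 OE it was 9.74%, 9.67% and 8.07% in fat and 7.05%, 7.47% and 7.35% in liver, again apart. mt-Nd2 held a smaller part in fat with the null vector, at 10.1%, 8.60% and 8.61% against 13.9%, 12.3% and 11.1% in liver. With hHKDC1 OE the tissues overlapped for mt-Nd2, at 8.37% to 10.9% in fat and 10.6% to 14.7% in liver.

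**Figure D4:**
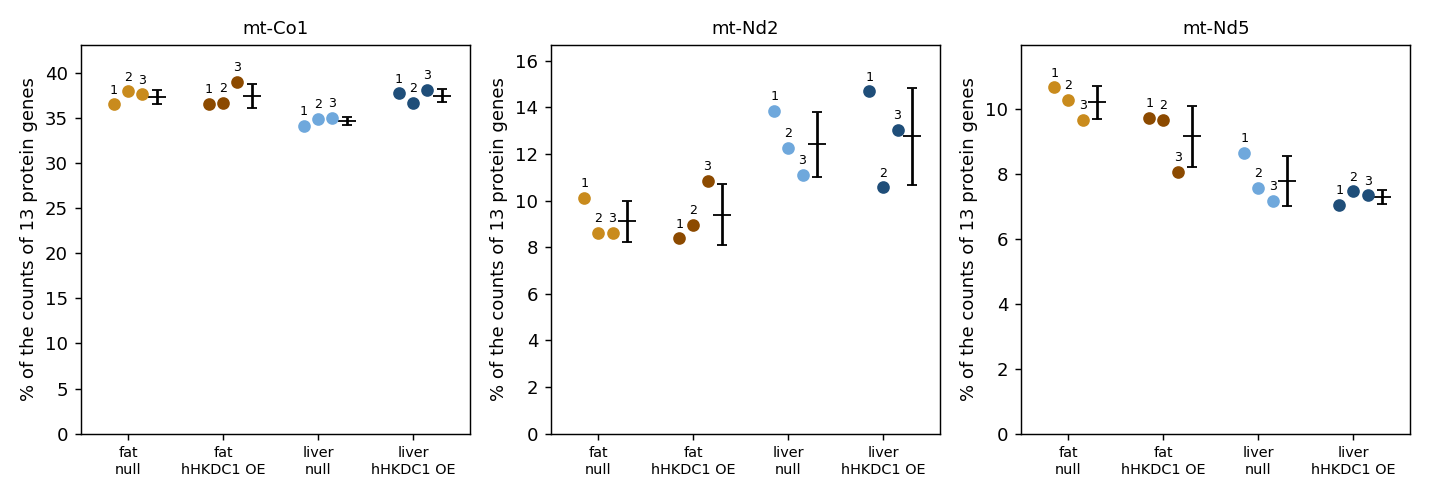
Counts of mt-Co1, mt-Nd2 and mt-Nd5 as a percent of the summed counts of the 13 protein genes, by tissue and vector, with each library as a numbered point and the mean and SD of 3 libraries as a bar. mt-Co1 lies between 34.1% and 38.9%, and every fat library lies above the liver libraries of the same vector for mt-Nd5.

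The nuclear genes that serve this genome were read from 10 lists of 151 genes, for transcription, RNA maturation and decay, replication, ribosome assembly and translation, regulation of biogenesis, and the nuclear subunits of complexes I, III, IV and V. In fat, 0 of 150 tested were called between hHKDC1 OE and null and 6 had an unadjusted p under 0.05, against 17.7% of all genes tested. In liver 0 of 148 were called and 4 had one, against 6.94%. In fat, the nuclear subunits had a median log2 difference of 0.12 with 51 of 73 positive, beside -0.26 for the mitochondrial protein genes. The sign of the median over all 24 mitochondrial genes tested in fat rested on the libraries, as given above. In liver, 66 of 71 nuclear subunits were negative with a median of -0.14, the sign of the mitochondrial protein genes, and 12 of the 71 had groups apart, against the 12.5% of all genes given above. Single values of these subunits were small, from -0.32 to 0.09.

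The genes of smallest p in these lists did not pass. In fat they were Ptcd1, a mitochondrial RNA-binding protein, at -0.54 (edgeR adjusted p = 0.168), and the complex I subunits Ndufs6 at 0.56 (edgeR adjusted p = 0.190) and Ndufa1 at 0.70 (edgeR adjusted p = 0.215). In liver they were the replication genes Dna2, a nuclease and helicase, at 0.51 (edgeR adjusted p = 0.621) and Primpol, a primase, at 0.78 (edgeR adjusted p = 0.647), and Mterf4, which acts in assembly of the mitochondrial ribosome, at 0.39 (edgeR adjusted p = 0.652). The core factors Polrmt (the RNA polymerase), Tfam (which starts transcription and packs the DNA), Lrpprc and Slirp (which stabilise the messenger RNAs), Twnk (the helicase) and Polg (the DNA polymerase) had log2 differences of -0.08 to 0.38 in fat and -0.16 to 0.18 in liver, none of which passed.

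Between null fat and null liver, 109 of 150 genes of these lists were called, 102 lower and 7 higher in fat. Of all genes tested, 64.3% were called, 30.5% lower and 33.8% higher in fat. The nuclear subunits had a median of -1.12, with 63 of 73 lower and 3 higher. The 3 were Cox8b, Cox6a2 and Cox7a1, forms of complex IV subunits found in muscle and brown fat, and null fat replicates 1 and 2 carried muscle markers at 23325 and 27657 CPM, whose part in these values was not tested. With library size alone, 71 of the 150 list genes were called, 39 higher and 32 lower. Of all genes tested, 74% were then called, 59% higher and 15% lower. The more frequent direction of the list calls thus rested on the scaling. Lrpprc at -2.01, Tfam at -1.55 and Twnk at -1.39 were lower in fat (edgeR adjusted p = 3.43e-05, 9.88e-05 and 0.000278), and the other 3 core factors did not pass.

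**Figure D5:**
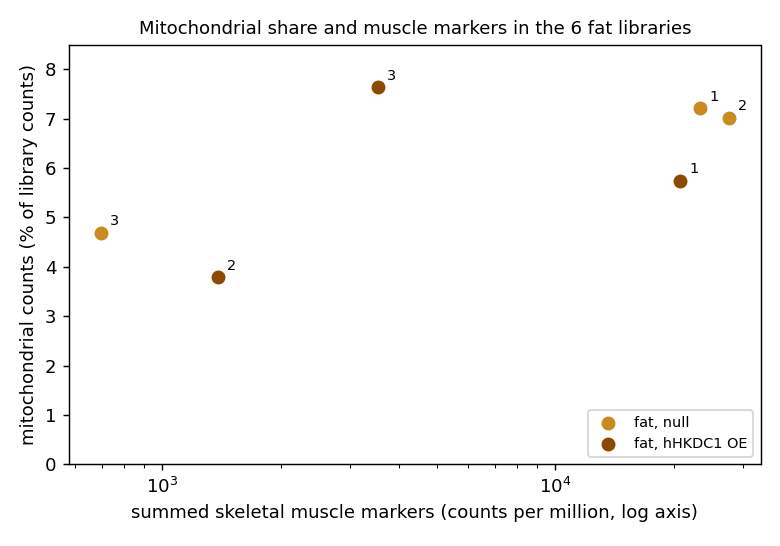
Summed CPM of 12 skeletal muscle markers (horizontal, log axis) against the share of counts on the mitochondrial genes (vertical, percent) in each of the 6 fat libraries, with the vector as colour and the replicate number beside each point. Null replicates 1 and 2 and hHKDC1 OE replicate 1 lie to the right, at 20747 CPM or more, and the library with the highest share (7.64%) is not among them.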

How the data were processed

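RNA sequencing of 12 libraries was read from the deposited table of gene counts. Per the submitters' processing notes, the authors aligned paired reads with STAR 2.5 (the methods also name a later release) and made the counts with HTSeq 0.6.1, and computed FPKM from the counts and gene lengths. The methods name a human reference, but the deposited IDs are mouse genes, and 98.1% lie at the same position in GENCODE M21 (GRCm38). The libraries were not strand-specific. The handling of reads with several positions is not given in the sources used here. Deposited group means and the authors' own comparisons (fold changes and p-values by DESeq2) were not used, and 0 columns of per-sample values were left unused. Depth was 15496019 to 19954971 counts per library.

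Counts were tested with edgeR 4.0.16 (quasi-likelihood test, filterByExpr, TMM) in R 4.3.3 within each tissue, between null fat and null liver, and for the interaction over all libraries, with Benjamini-Hochberg adjustment over all genes tested and a threshold of 0.05. Shares and ratios were compared by exact permutation tests over libraries (scipy 1.17.1). Alternatives were DESeq2 1.42.0, library size alone, scaling on nuclear genes, other filters, limma 3.58.1 on log2(FPKM + 1) and log2(FPKM + 0.1), a replicate block, all libraries in 1 fit, and leaving out libraries. On simulated counts with 4-fold changes, edgeR recovered 48.5% of changed genes in the fat design, 81.5% in the liver design, 77% between the tissues and 39% for the interaction. These rates do not cover smaller changes. DESeq2 made 58 false calls beside 146 right ones in the fat design and 73 beside 176 between the tissues. For edgeR the false calls were 6 and 16. Values are given for all protein and rRNA genes, for the 6 tRNA genes with the most counts and a group mean of at least 10, for the core factors, and for the 3 list genes of smallest p where none passed. The members and lists were chosen with earlier results of these data known.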

Additional observations from a re-analysis of the deposited data

How the results depend on the processing

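Under the alternatives run, 0 mitochondrial genes were called between hHKDC1 OE and null in fat or in the interaction. In liver, 3 were called with no filter on low counts, 1 (mt-Tv) with limma on log2(FPKM + 1) and 2 (mt-Tv and mt-Tg) with limma on log2(FPKM + 0.1), where the genes had 0 counts in each hHKDC1 OE library. Of all genes tested, these settings called 327 of 24792, 3 of 17817 and 5 of 17817, in that order. Between null fat and null liver, library size alone left 10 mitochondrial genes and 71 genes of the nuclear lists called, where 74% of all genes tested were called. It turned the sign of mt-Nd1 (0.15), mt-Co1 (0.31), mt-Co2 (0.0051), mt-Nd4l (0.52), mt-Nd4 (0.21), mt-Nd5 (0.61), mt-Nd6 (0.23), mt-Cytb (0.10), mt-Tp (0.11) and mt-Tn (0.08). All 18 mitochondrial calls in that comparison were lower in fat, as were all calls under each alternative, from 10 to 23, and the 24 called when 1 null fat library was left. Both rRNA genes, mt-Co3, mt-Nd3, mt-Te, mt-Ts2, mt-Tl2 and mt-Th were called under all 16 alternatives.

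Without the 3 fat libraries high in muscle markers, chosen after seeing the data, hHKDC1 OE minus null in fat was 1.02 percentage points for the mitochondrial share and 0.19 for the log2 value of mt-Co1. The mitochondrial share then differed by -0.270 between fat and liver and by 1.31 between the vector effects. The rRNA share differed by -0.109 between fat and liver (exact permutation, p = 0.075) and the tRNA share by -0.00767. The cause was not tested.

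Leaving out each library in turn moved hHKDC1 OE minus null for the mitochondrial share between -1.55 (without hHKDC1 OE replicate 3) and 0.381 (without replicate 2) in fat and between -0.660 and 0.0752 in liver (without hHKDC1 OE replicates 2 and 3), and the difference of the vector effects between -1.25 and 0.674. For the rRNA share the range was -0.00966 to 0.0662 in fat, reversed without hHKDC1 OE replicate 3, and -0.0125 to 0.0306 in liver, reversed without hHKDC1 OE replicate 1. The rRNA ratio, hHKDC1 OE minus null, ranged from 0.371 to 1.13 in fat and from 0.0432 to 1.08 in liver. The tRNA share, fat minus liver, ranged from -0.00731 to -0.00405. mt-Rnr1 in fat ranged from -0.34 to 0.64 and mt-Rnr2 from -0.30 to 0.51 on the log2 scale. The genes of the nuclear lists called in fat ranged from 0 to 3, with 3 without hHKDC1 OE replicate 2, where 3251 of all 17190 genes tested were called. Mitochondrial calls between the tissues ranged from 16 to 22. Calls among all genes tested there ranged from 8984 of 15788 to 9671 of 16428.

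Whether replicate numbers pair the libraries is not settled. The correlations of deviations of same-numbered null and hHKDC1 OE libraries were 0.00513, -0.112 and 0.0247 in fat. There, null replicate 2 correlated better with hHKDC1 OE replicate 1 (0.239) than with its own number. In liver the same-numbered values were 0.189, 0.128 and 0.0438, and null replicate 3 correlated better with hHKDC1 OE replicate 2 (0.101). Same-numbered fat and liver libraries correlated at 0.213, 0.0247 and 0.139 with the null vector and at -0.00223 to 0.0524 with hHKDC1 OE. Each null fat library correlated best with the null liver library of its own number. The labels do not say whether fat and liver libraries come from the same mice, and the main tests were unpaired. With a replicate block, 0 mitochondrial genes were called in fat and in liver (168 and 17 of all genes tested). Between null fat and null liver 17 were called (9938 of all 15259 genes tested, 4762 of them lower in fat). In the interaction 0 were called (0 of all genes tested). The filter on low counts left mt-Atp8 and part of the tRNA genes untested, and the SE in fat was 0.32 to 0.46 for the protein genes tested. Reads shared with the nuclear copy could not be separated here.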
